A study of Homo sapiens with 16 samples.

Results

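The response to type I interferon is carried from the cell surface to DNA by the 9 genes described here: the receptor chains IFNAR1 and IFNAR2, the receptor-bound kinases JAK1 and TYK2, the interferon-activated factors STAT2 and IRF9, and the interferon regulatory factors IRF1, IRF3 and IRF7. They were selected by symbol, and all 9 were found once in each of the deposited tables, which list 60669 genes. The cells are HMC3, an established human cell line labelled as microglial, either wild type (WT) or labelled METTL3 KO, a knockout of the enzyme subunit that writes N6-methyladenosine (m6A) on RNA. No treatment, interferon included, is named in the labels, and they do not say whether the knockout is 1 clone, how it was made, or whether replicates were separate cultures, so p-values measure only the spread between these libraries, which may be technical. Of 16 libraries, 10 (5 per genotype) were made from polyadenylated RNA with Smart-seq2 and 6 (3 per genotype) from RNA freed of rRNA, with a strand-keeping kit; these also hold RNA without a poly(A) tail. Values of single libraries are listed in the order of replicates 1, 2 and 3.

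Type I interferons bind a receptor made of IFNAR1 and IFNAR2, whose tails hold the kinases TYK2 and JAK1 respectively. The kinases phosphorylate STAT proteins, and STAT2 and IRF9 are subunits of ISGF3, the complex that binds the interferon-stimulated response element (ISRE) in front of interferon-stimulated genes. IRF3 and IRF7 act earlier, switching on interferon genes after a sensor has detected foreign or misplaced nucleic acid, and IRF7 and IRF9 are themselves interferon-stimulated genes. IRF1 is induced by interferon gamma and by inflammatory signals through a gamma-activated site (GAS), a sequence bound by STAT dimers, and it drives antigen presentation and antiviral genes. In microglia this pathway underlies the interferon-responsive state seen in infection and ageing.

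The rRNA-depleted libraries were measured in TPM, a gene's length-corrected share of the transcripts in its library. They were shallow, with 266157 to 487272 reads in the wild type and 512627 to 1267171 in the libraries labelled knockout, recovered from TPM with GENCODE 29 gene lengths. Knockout-labelled libraries 1 and 2 differed by no more than sampling noise (chi-square 1.02 per degree of freedom, p = 0.0556), whereas the other pairs within a genotype gave 1.17 to 1.54 per degree of freedom, so these libraries were averaged and counted as 1 sample, leaving 3 wild-type and 2 knockout-labelled samples. METTL3 mRNA averaged 29.4 ± 3.49 TPM (SD, n = 3) in wild-type samples and 41.2 ± 2.21 TPM (SD, n = 2) under the knockout label, with a limma adjusted p of 0.106. In the authors' deposited table of the poly(A) libraries its log2 fold change was 0.09 (SE 0.11, adjusted p 0.654). The level of METTL3 mRNA therefore checks the label in neither library type, and directions below are for the libraries labelled knockout. Of 14 microglial markers, 10 were listed at 0 in all 6 libraries, among them AIF1, CX3CR1, P2RY12, TMEM119, PTPRC and SPI1. The 6 fibroblast and mural markers summed to 10359 to 12827 TPM in the wild type and 1162 to 1308 TPM in the knockout label. COL1A1 made up most of each sum. None of the 6 was at 0 throughout, but ACTA2 and COL3A1 added little to any sum. COL3A1 was above 0 only in wild-type library 1, at 2.08 TPM. THY1 of that list went the other way, with 121 to 131 TPM in the wild type and 248 to 270.3 TPM in the knockout label. The 3 neuronal markers summed to 0 to 3.63 TPM in the wild type and 10.6 to 11.9 TPM in the knockout label, mostly SNAP25, with RBFOX3 at 0 throughout. Astrocytic, oligodendroglial, endothelial and lymphocyte markers summed to at most 2.33 TPM per list in any library. The part that these differences play in the results below was not tested.

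In the rRNA-depleted libraries 5 of the 9 genes passed the threshold of 0.05 on the limma adjusted p: IFNAR1, IFNAR2 and IRF3 fell, and JAK1 and STAT2 rose. That is 55.6% of the members, beside 35.3% of all 14789 genes tested, 22.9% higher and 12.4% lower. In the poly(A) libraries, the authors' deposited table gave 4 of the 9 an adjusted p under 0.05, namely JAK1, STAT2, IRF1 and IRF7, each with a positive log2 fold change, beside 19.9% of 14009 genes in that table, 9.55% of them positive and 10.3% negative. The receptor chains and IRF3 did not pass in the poly(A) table. The median log2 change of the 9 was 0.14 in the rRNA-depleted libraries, where all genes had a median of 0.41, and 0.62 in the authors' deposited table, where all genes had 0.02. Changes in the rRNA-depleted libraries are on the log2(TPM + 1) scale and are given as fitted and, where it matters, relative to the 0.41 of all genes. Median ratio scaling took that 0.41 to 0.11, and the share of all calls that were higher from 64.8% to 48.6%; that share was 42.9% with a GC trend removed, 52.1% with quantile normalization and 52.5% with voom.

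**Figure D1:**
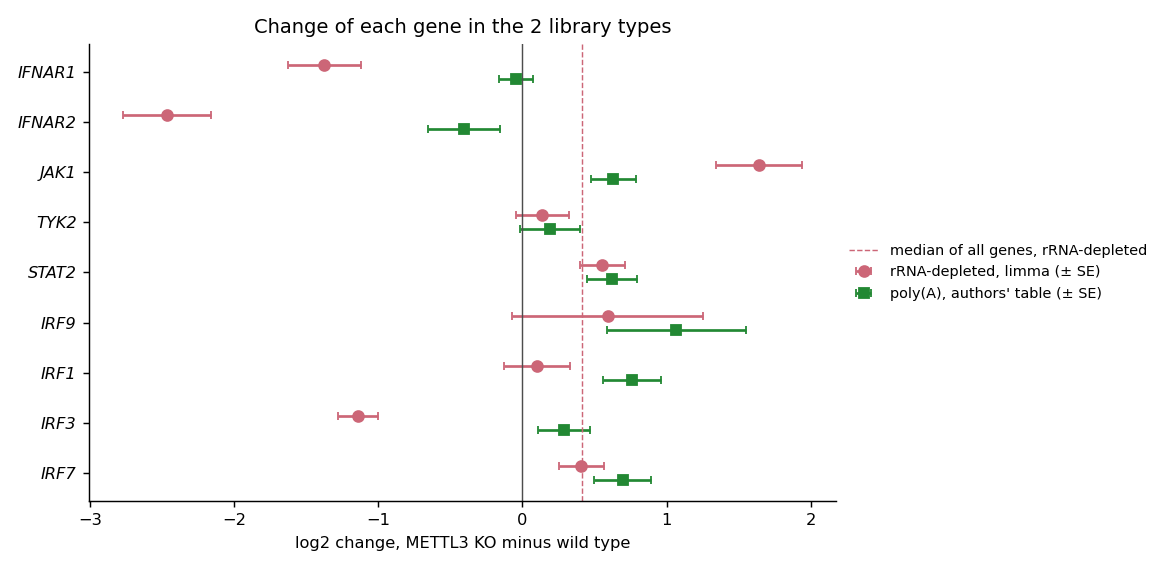
Log2 change of the 9 genes between the METTL3 KO label and wild type, with bars for 1 SE. Circles are limma estimates from the rRNA-depleted libraries and squares the values of the authors' deposited poly(A) table; the dashed line is the median of all genes, 0.41. In the rRNA-depleted series IFNAR1, IFNAR2 and IRF3 lie furthest left (-1.37, -2.47 and -1.14), and JAK1 and STAT2 lie right of 0 in both.

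Both receptor chains fell in the rRNA-depleted libraries. IFNAR1 (ENSG00000142166; chromosome 21, 33324477 to 33359862, plus strand, GRCh38), the chain that docks TYK2, stood at 69.7, 72.3 and 111 TPM (wild type) and at 33.0, 34.8 and 28.7 TPM (knockout label). Every knockout-labelled library was below every wild-type library, and the wild-type spread came from library 3. The wild-type mean of 84.4 ± 23.2 TPM (SD, n = 3) compares with 31.3 ± 3.66 TPM (SD, n = 2), 2.70-fold lower, a log2 change of -1.37 (SE 0.25) with a limma adjusted p of 0.0128. In bulk RNA, fewer cells that express a gene and less of its RNA per cell cannot be told apart.

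IFNAR2 (ENSG00000159110; chromosome 21, 33229901 to 33265675, plus strand), the chain that docks JAK1 and binds interferon with the higher affinity, fell furthest of the 9. It had 38.4, 33.6 and 53.2 TPM (wild type) and 6.54, 8.90 and 5.60 TPM (knockout label), from 15 to 41 reads and 4 to 15 reads. The groups did not overlap, and the highest knockout-labelled library was far below the lowest wild-type library. The wild-type mean of 41.7 ± 10.2 TPM (SD, n = 3) compares with 6.66 ± 1.501 TPM (SD, n = 2), 6.27-fold lower, a log2 change of -2.47 (SE 0.30) with a limma adjusted p of 0.00439, lower than in all but 4.08% of tested genes. Of its exonic bases 44.2% are shared with the read-through gene AP000295.1 and 39.1% with IL10RB-DT on the opposite strand. Both were listed at 0 TPM in all 6 libraries, and how the authors assigned reads in shared exons is not given in the sources used here.

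In the authors' deposited table IFNAR1 had a log2 fold change of -0.05 (SE 0.12; adjusted p 0.846) and IFNAR2 one of -0.41 (SE 0.25; adjusted p 0.285). Whether the library types differ was not tested, because the deposited table has no value for a single library. Without knockout-labelled library 3, which leaves that arm 1 sample assumed to vary like the wild type, the limma adjusted p was 0.133 for IFNAR1 and 0.0564 for IFNAR2, at log2 changes of -1.26 and -2.27. With the trend between level and transcript GC content removed, the changes were -2.24 and -3.09.

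Of the receptor-bound kinases, JAK1 rose and TYK2 did not pass. JAK1 (ENSG00000162434; chromosome 1, 64833229 to 64966504, minus strand), which also serves the interferon gamma and interleukin receptors, had 33.6, 18.0 and 20.8 TPM (wild type) and 81.7, 77.6 and 70.5 TPM (knockout label). All 3 knockout-labelled libraries were above the highest wild-type library. The mean rose 3.11-fold, with 24.2 ± 8.32 TPM (SD, n = 3) in the wild type against 75.1 ± 6.45 TPM (SD, n = 2), or 1.64 (SE 0.30; limma adjusted p 0.0126) in log2, or 1.23 relative to all genes. The authors' deposited table also gave JAK1 a positive log2 fold change, 0.63 (SE 0.16; adjusted p 0.000784). Without knockout-labelled library 3 the limma adjusted p was 0.117, and with the GC trend removed the log2 change was 0.97 (limma adjusted p 0.0496).

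TYK2 (ENSG00000105397; chromosome 19, 10350529 to 10380676, minus strand), the kinase on IFNAR1, did not pass in either library type. Its levels were 45.0, 36.7 and 34.5 TPM (wild type) and 42.6, 41.2 and 42.9 TPM (knockout label), so the wild-type range enclosed all of the other group. limma put the log2 change at 0.14 (SE 0.18; adjusted p 0.591), with a negative sign under 3 other scalings. The authors' deposited table gave TYK2 0.19 (SE 0.21; adjusted p 0.594).

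**Figure D2:**
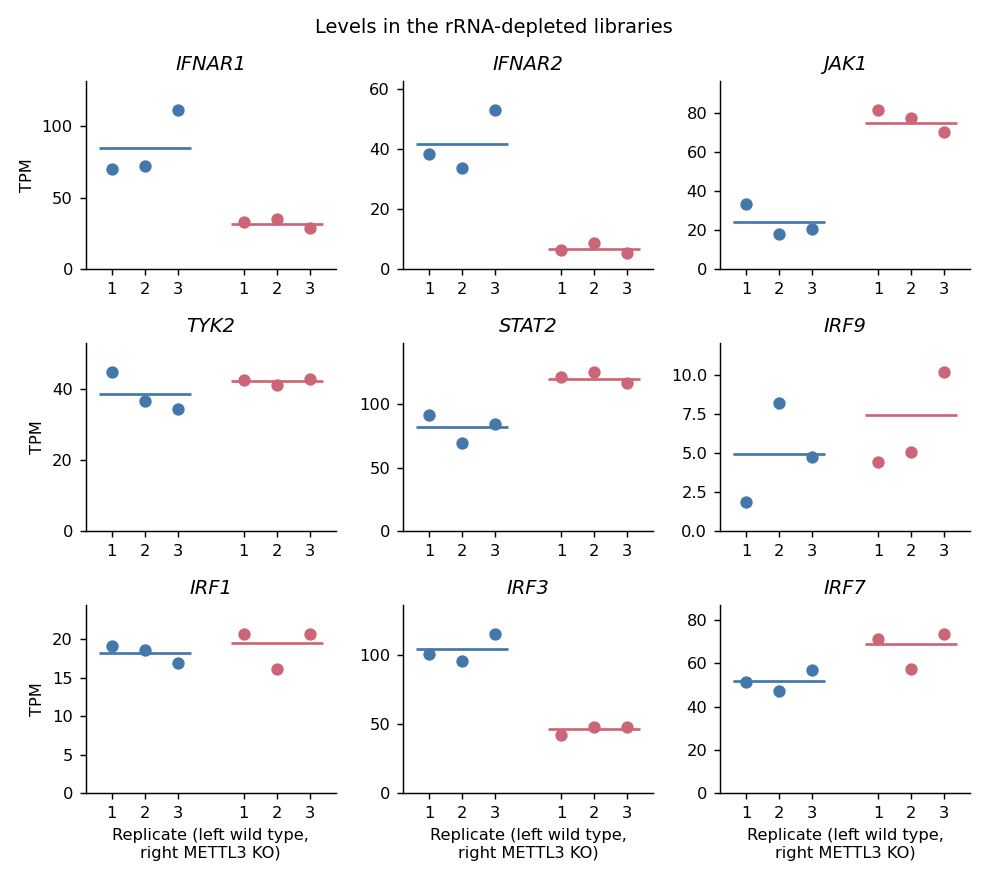
TPM of each of the 9 genes in the 6 rRNA-depleted libraries, wild type left and METTL3 KO label right, with lines at the mean over samples (libraries 1 and 2 of the knockout label averaged first); each panel starts at 0 and has its own scale. The groups separate for IFNAR1, IFNAR2, IRF3, JAK1, STAT2 and IRF7 and overlap for TYK2, IRF1 and IRF9.

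STAT2 (ENSG00000170581; chromosome 12, 56341597 to 56360155, minus strand), the ISGF3 subunit that carries its main transactivation domain, was higher in both library types. It stood at 91.6, 69.5 and 84.3 TPM (wild type) and at 121, 126 and 116 TPM (knockout label), with no overlap. Averages of 81.8 ± 11.3 TPM (SD, n = 3) for the wild type and 120 ± 5.03 TPM (SD, n = 2) for the knockout label were 1.47-fold apart, a log2 change of 0.55 (SE 0.16) with a limma adjusted p of 0.0441. Relative to all genes that is 0.14, and the call was lost under 8 of 16 alternatives. With median ratio scaling the log2 change was 0.20 (limma adjusted p 0.324), and without any 1 wild-type library the limma adjusted p was 0.0502 to 0.0804; without knockout-labelled library 3 it was 0.172. For STAT2 the authors' deposited table held a log2 fold change of 0.62 (SE 0.17; adjusted p 0.00355).

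IRF9 (ENSG00000213928; chromosome 14, 24161053 to 24166565, plus strand), the DNA-binding subunit of ISGF3, was the lowest of the 9 in the wild type. It held 1, 3 and 3 reads (wild type) and 5, 7 and 6 reads (knockout label), which are 1.87, 8.18 and 4.73 TPM and 4.42, 5.05 and 10.2 TPM. The knockout-labelled libraries are deeper, and the TPM values overlapped. In the wild-type libraries 3 reads correspond to 4.73 to 8.18 TPM, so a small difference was not detectable at this depth and no fold is given. The limma adjusted p was 0.524. Of its exonic bases 48.4% are shared with AL136295.5 on the same strand, which had 2.16 to 5.90 TPM. In the authors' deposited table IRF9 had a log2 fold change of 1.07 (SE 0.48) at a mean normalized count of 7.63 and an adjusted p of 0.106.

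The start regions were searched for the letters that ISGF3 and STAT dimers bind. RefSeq start windows on GRCh38.p14 were given for 6 of the 9 genes (JAK1, IRF1, STAT2, IRF9, TYK2 and IFNAR1, with 9 windows). In the 250 bases before each start, the ISRE letters (GAAA, any 2 bases, GAAA) were found on neither strand of any of the 9 windows, beside 3.021% of all 35116 windows. The GAS letters TTCNNNGAA, which read the same on both strands, were found once each in IRF1 and IRF9, beside 6.57% of all windows. The matches begin 124 bases before the RefSeq start of IRF1 and 63 bases before that of IRF9. Each is shown with 10 bases on either side, 29 bases in all, and with the matching letters in capitals. The 29 bases lie at chr5:132490879-132490907 (IRF1, minus strand) and chr14:24161192-24161220 (IRF9, plus strand). Those of IRF9 lie inside the gene span given above, which begins at 24161053, so the RefSeq start and that of GENCODE 29 differ. Those of IRF1 lie before the start of its span. A match is a description of letters and not a bound site.
IRF1: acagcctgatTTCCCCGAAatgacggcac
IRF9: accacgtgatTTCTGGGAAaaggccctcc

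IRF1 (ENSG00000125347; chromosome 5, 132481609 to 132490798, minus strand) was higher in the poly(A) libraries, where the authors' deposited table gave it a log2 fold change of 0.76 (SE 0.20; adjusted p 0.00194). In the rRNA-depleted libraries it had 19.1, 18.6 and 16.9 TPM (wild type) and 20.6, 16.2 and 20.7 TPM (knockout label). The groups overlapped. limma put the log2 change at 0.10 (SE 0.23; adjusted p 0.767), and it was negative but not past the threshold under median ratio scaling, quantile normalization, removal of the GC trend and voom. On the opposite strand C5orf56 shares 22.0% of the exonic bases of IRF1 and had at most 4.93 TPM.

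IRF3 (ENSG00000126456; chromosome 19, 49659569 to 49665875, minus strand), the factor that is present before infection and starts the first wave of interferon beta, fell in the rRNA-depleted libraries. It had 101, 95.5 and 115 TPM (wild type) and 42.4, 47.6 and 47.7 TPM (knockout label). The groups were far apart. The wild-type mean of 104 ± 10.2 TPM (SD, n = 3) compares with 46.3 ± 1.86 TPM (SD, n = 2), 2.24-fold lower, a log2 change of -1.14 (SE 0.14) with a limma adjusted p of 0.00425. IRF3 passed under all 16 alternatives, at log2 changes of -1.49 to -1.03. For IRF3 the authors' deposited table held a log2 fold change of 0.29 (SE 0.18; adjusted p 0.295). BCL2L12 on the opposite strand shares 19.3% of the exonic bases of IRF3, and its own level of 48.6 to 103 TPM in the wild type overlapped its 43.9 to 93.3 TPM in the knockout label.

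IRF7 (ENSG00000185507; chromosome 11, 612553 to 615999, minus strand), the factor that interferon itself induces and that widens the response to the interferon alpha genes, stood at 51.2, 47.3 and 57.0 TPM (wild type) and at 71.4, 57.3 and 73.7 TPM (knockout label). The groups did not overlap, but knockout-labelled library 2 was next to wild-type library 3. Its averages, 51.8 ± 4.88 TPM (SD, n = 3) for the wild type and 69.0 ± 6.61 TPM (SD, n = 2), differ by a log2 change of 0.41 (SE 0.15) that equals the median of all genes, with a limma adjusted p of 0.0967. IRF7 mRNA has the highest GC content of the 9 (66.8%), and with the GC trend removed its log2 change was 1.05 (limma adjusted p 0.00507). For IRF7 the authors' deposited table held a log2 fold change of 0.69 (SE 0.20; adjusted p 0.00376). In all, the libraries of the genotypes did not overlap for 6 of the 9 genes (66.7%), beside 58.4% of all genes tested.

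Ratios between partner genes within a library do not depend on a scaling factor common to all genes of that library, but they do depend on corrections that treat genes differently. The 3 pairs given here were chosen after the values were seen. IFNAR2 over IFNAR1 was 0.551, 0.466 and 0.479 in the wild type and 0.198, 0.256 and 0.195 in the knockout label, so it was lower in every knockout-labelled library. JAK1 over TYK2 was 0.748, 0.491 and 0.605 against 1.92, 1.88 and 1.64, and IRF7 over IRF3 was 0.508, 0.495 and 0.494 against 1.68, 1.20 and 1.55. In both of these pairs the gene with the lower level in the wild type had the higher level in every knockout-labelled library. The mean ratios differed 2.36-fold (IFNAR2 over IFNAR1, lower), 2.88-fold (JAK1 over TYK2, higher) and 2.996-fold (IRF7 over IRF3, higher). A two-sided exact permutation test gave p = 0.2 for each of the 3, the smallest that 3 against 2 samples allow. With pairs chosen for groups that do not overlap, that value was fixed in advance, so the test adds nothing to the ratios. No adjustment over the 3 was made. On the log2(TPM + 1) scale the change of JAK1 minus that of TYK2 was 1.51 as deposited and 0.59 with the GC trend removed. The same difference was -1.09 and -0.85 for IFNAR2 minus IFNAR1, and 1.55 and 2.08 for IRF7 minus IRF3.

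**Figure D3:**
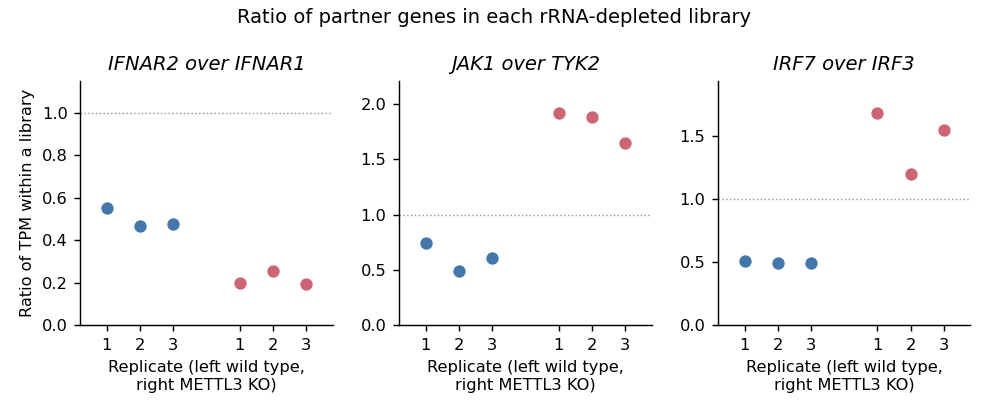
Ratio of TPM between partner genes in each rRNA-depleted library, wild type left and METTL3 KO label right; the dotted line marks equal levels. JAK1 over TYK2 and IRF7 over IRF3 lie below 1 in the 3 wild-type libraries and above 1 in the 3 libraries labelled knockout, and IFNAR2 over IFNAR1 is lower in all 3 of the latter.

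The order of the 9 genes by TPM, a level per gene length, differed between the genotypes. In the wild type it ran IRF3, IFNAR1, STAT2, IRF7, IFNAR2, TYK2, JAK1, IRF1 and IRF9, from 104 to 4.93 TPM. The libraries of neighbours in that order overlapped except between STAT2 and IRF7, TYK2 and JAK1, and IRF1 and IRF9. In the libraries labelled knockout it ran STAT2, JAK1, IRF7, IRF3, TYK2, IFNAR1, IRF1, IRF9 and IFNAR2, from 120 to 6.66 TPM. There the overlapping neighbours were JAK1 with IRF7, IRF3 with TYK2, and IRF9 with IFNAR2.

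Upstream and downstream genes were counted by list. Of 10 interferon ligand genes, 9, with IFNB1 among them, had 0 TPM throughout the rRNA-depleted series, and IFNE held at most 1 read. With no read seen, up to 3 reads are allowed, for IFNB1 9.57 to 36.1 TPM, and this limit covers counting error only. The authors' deposited table gave none of the 10 an adjusted p. The other receptor chains and kinases were not past the limma threshold (0 of 6 tested; median 0.00, or 0.39 over 5 with those at or under 3 reads set to 3 reads), while in the authors' deposited table IFNGR2, a chain of the interferon gamma receptor, had a log2 fold change of 0.88 (adjusted p 0.0279) and IFNLR1, a chain of the interferon lambda receptor, one of -2.09 (adjusted p 0.0212) at a mean normalized count of 3.16. Of the other STAT factors, 0 of 4 tested passed in either library type (median 0.42 in the rRNA-depleted libraries, or 0.25 with 1 set to 3 reads, and -0.05 in the authors' deposited table). Of the other IRF factors only IRF2 was tested in limma, where it did not pass (0.91, adjusted p 0.057), and in the authors' deposited table IRF2 had 0.56 with an adjusted p of 0.033.

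Among 12 adaptors and kinases that act on IRF3 and IRF7, MAVS and IRAK1 fell and TANK rose in the rRNA-depleted libraries, and 9 did not pass (median 0.10). Over all genes tested 35.3% passed, so these calls are no more frequent than among genes at large. MAVS, the mitochondrial adaptor of the RNA sensors, had 218, 202 and 232 TPM (wild type) and 86.0, 86.1 and 83.4 TPM (knockout label). The groups were far apart, with a log2 change of -1.35 and a limma adjusted p of 0.00188, but the authors' deposited table gave MAVS a log2 fold change of 0.00 (adjusted p 0.9997). IRAK1, a kinase downstream of Toll-like receptors, changed by -0.45 (limma adjusted p 0.02), and by -0.08 (limma adjusted p 0.603) with the GC trend removed. Its limma adjusted p was 0.0526 without wild-type library 1 and 0.0516 without knockout-labelled library 3. TANK, an adaptor of the kinases that phosphorylate IRF3, changed by 1.12 (limma adjusted p 0.0478), a call lost under 10 of 16 alternatives, and by 0.037 (limma adjusted p 0.948) with the GC trend removed. In the authors' deposited table MYD88 and TRAF6 were the 2 of 12 that passed, at 0.81 and 0.68, beside 19.9% of all genes there.

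Of 14 restraints on the pathway, 13 were tested, and 5 rose and 1 fell in the rRNA-depleted libraries (median 0.75, or 0.58 with the 2 genes at or under 3 reads in the wild type set to 3 reads). Over all genes tested 22.9% rose and 12.4% fell. PTPN1, a phosphatase of JAK kinases, averaged 101 ± 5.37 TPM (SD, n = 3) in the wild type against 183 ± 17.0 TPM (SD, n = 2; log2 change 0.85, limma adjusted p 0.00601), and PIAS1, an inhibitor of STAT activity, had a log2 change of 1.73 (limma adjusted p 0.00784), which with the GC trend removed was 0.79 (limma adjusted p 0.0845). PTPN11, a phosphatase, had 0.75 (limma adjusted p 0.013), but -0.12 (limma adjusted p 0.481) with the GC trend removed. Without knockout-labelled library 3 the limma adjusted p was 0.0743 for PIAS1 and 0.0629 for PTPN11. IRF2BP1, a corepressor that binds IRF2, was the gene that fell (-0.96, limma adjusted p 0.0385). SOCS3 and USP18 were the 2 of 12 that passed in the authors' deposited table, at 0.82 and 1.60, beside 19.9% of all genes there. SOCS3 was also among the 5 that rose in the rRNA-depleted libraries (0.58, limma adjusted p 0.0444). USP18 did not pass there (limma adjusted p 0.0524).

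Of 29 targets of ISGF3, 27 had an adjusted p in the authors' deposited table. Of those, 25 passed as higher and 0 as lower (median 2.18), beside 9.55% and 10.3% of all genes there. In the rRNA-depleted libraries 25 were tested, and 10 of them held at most 3 reads in each wild-type library. Of these 10, SAMD9 reached 1 TPM in each wild-type library. OASL passed the filter on low values through wild-type library 1 and knockout-labelled libraries 1 and 3. The rest of these 10 passed it only through the libraries labelled knockout. Of the 15 tested targets outside these 10, 8 were higher and 1 lower, and of these 10, 7 were higher. Over all genes tested 22.9% were higher and 12.4% lower. The median over the 25 was 1.96, or 1.70 over 24 genes with those at or under 3 reads in a genotype set to 3 reads. BST2, a membrane protein that tethers virus particles, changed by 2.92 and DTX3L, a ubiquitin ligase, by 1.84 in the rRNA-depleted libraries. SAMD9 also passed but held 1 or 2 reads in each wild-type library. IFI6 was the only target past the threshold in opposite directions, at -0.76 in the rRNA-depleted libraries (limma adjusted p 0.0058) and 2.18 in the authors' deposited table. Of 12 targets of IRF1 and interferon gamma, 7 of 8 with an adjusted p were higher in the authors' deposited table (median 1.16). In the rRNA-depleted libraries 5 were tested (median 2.57, or 1.99 with 2 set to 3 reads), and 1 of the 3 above 3 reads in the wild type was higher. WARS1, a tryptophanyl-tRNA synthetase, changed by 2.57 (limma adjusted p 0.00233), and GBP1 and GBP3, interferon-induced GTPases, passed from at most 3 reads per wild-type library. GBP3 met the filter on low values only through the libraries labelled knockout. Without knockout-labelled library 3 the limma adjusted p was 0.082 for IFI6, 0.0911 for GBP1 and 0.0968 for GBP3.

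**Figure D4:**
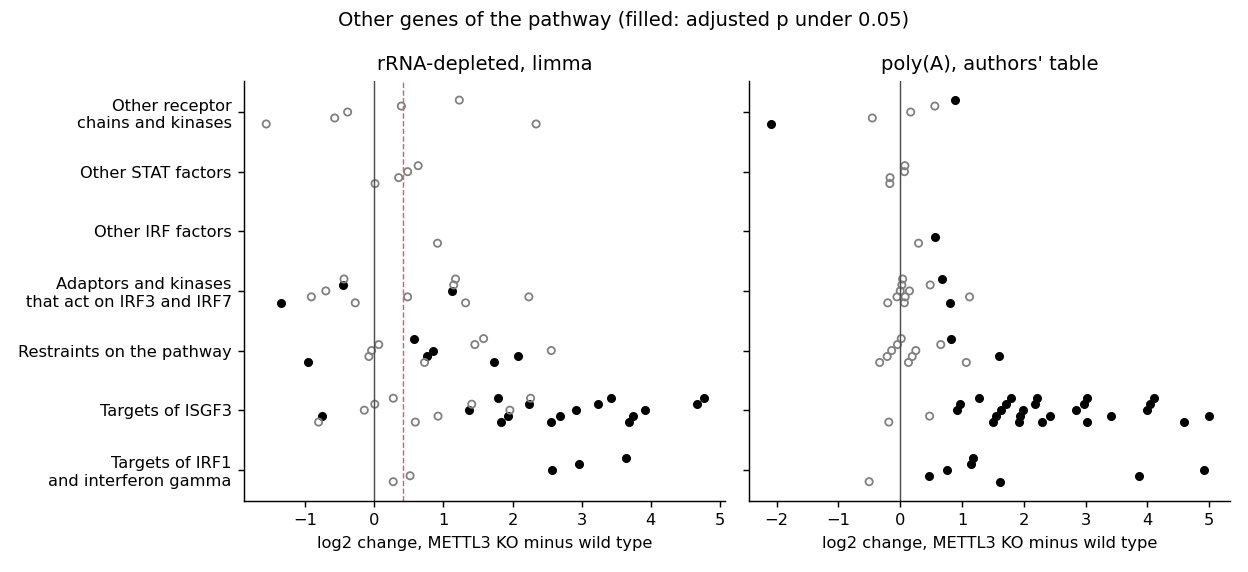
Log2 change of the other genes of the pathway by list, from limma in the rRNA-depleted libraries (left, dashed line at the median of all genes, 0.41) and from the authors' deposited poly(A) table (right). Filled points have an adjusted p under 0.05 and open points do not; 25 of 27 targets of ISGF3 are filled and right of 0 on the right-hand side.

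The genes whose profile over the 6 rRNA-depleted libraries was most like that of the member that rose most and of the member that fell most were found by the root mean square difference of centred log2(TPM + 1), among 11233 genes with a mean of at least 5 TPM. For JAK1 they were WNT5A (0.0918), DCAF17 (0.0955) and MTIF2 (0.0959). For IFNAR2 they were PI4K2B (0.0877), FOXO6 (0.106) and CWF19L1 (0.108). PI4K2B, a lipid kinase, had a log2 change of -2.58 in the rRNA-depleted libraries and 0.66 (adjusted p 0.00919) in the authors' deposited table. These likenesses describe 6 libraries of 2 genotypes and carry no test.

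**Figure D5:**
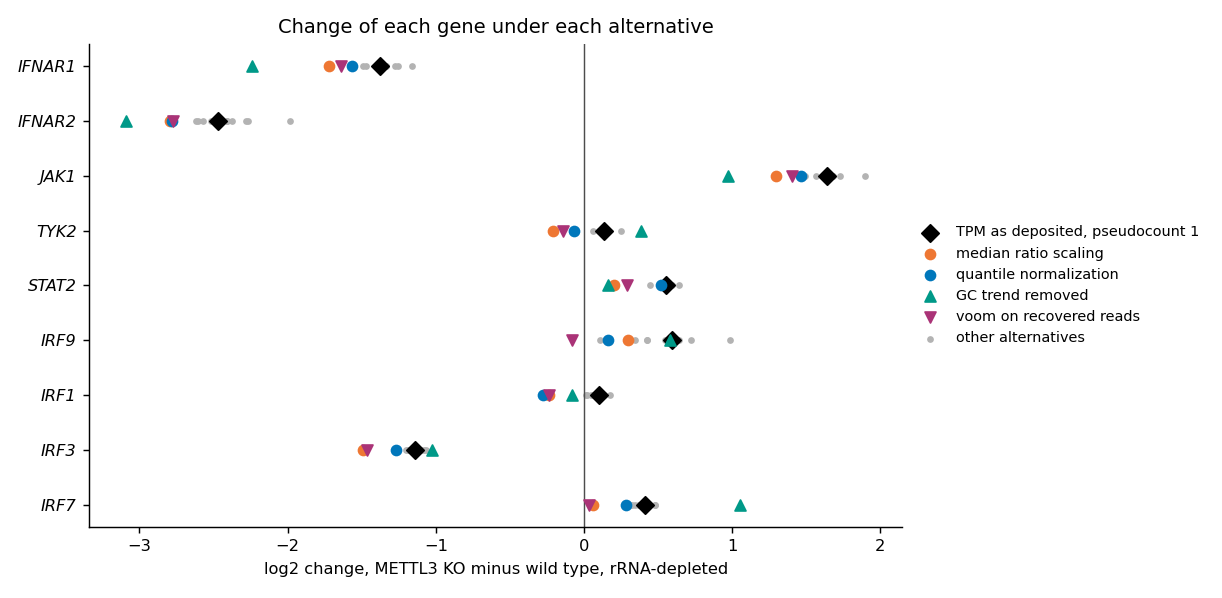
Log2 change of the 9 genes in the rRNA-depleted libraries under each processing alternative, with the value as reported as a black diamond. IFNAR1, IFNAR2 and IRF3 stay left of 0 and JAK1 right of 0 throughout, whereas TYK2, IRF1 and IRF9 fall on both sides.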

How the data were processed

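RNA of 16 HMC3 libraries was sequenced, and groups were taken from genotype and library type in the titles. Trimmomatic, STAR, DESeq2 and the build hg38 are named in the submitters' processing notes, with no role, order or version; the annotation, the counting and its use of strand are not given in the sources used here. The authors deposited TPM of 60669 genes for the rRNA-depleted libraries. Of the poly(A) libraries they gave 1 comparison. Per the file headers it holds a log2 fold change and its SE, the mean normalized count (a signal over all libraries), a Wald score, and each p-value before and after adjustment. It has no value for a single library, so it was described and not retested. Its numerator is not stated. Positive values were read as higher in the knockout, since the table carries the knockout's name and 91.5% of 177 genes past both thresholds and at least 1 log2 unit from 0 in both then agreed in sign; with the opposite numerator, every direction from that table would reverse.

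Gene lengths, positions and transcript GC content came from GENCODE 29 (93.8% of identifiers matched). Of TPM values above 0, 90.9% were whole multiples of 1 read to within 0.02 reads; reads printed are rounded. Library pairs were compared by chi-square over genes with at least 10 reads. limma 3.58.1 in R 4.3.3 (lmFit, eBayes with trend) was run on log2(TPM + 1) after removing genes that reached 1 TPM in fewer than 3 libraries, with Benjamini-Hochberg adjustment over all genes left. The step was also run on simulated reads with all libraries drawn independently, which need not hold here, and its outcome is not used. Ratios were tested in scipy 1.17.1. All per-library columns were used. The summed level of the microglial markers is not reported here.

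The 9 genes, the lists and the tests were chosen with earlier results of these data known. Other genes are named by rule: up to 3 per list with the smallest limma adjusted p, genes past both thresholds in opposite directions, and the 3 most similar profiles. IFNGR2, IFNLR1, IRF2, MYD88, TRAF6, SOCS3, USP18, IRF2BP1, IFNB1, IFNE and the genes that overlap members fall outside that rule and were picked once their values had been seen.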

Additional observations from a re-analysis of the deposited data

How the results depend on the processing

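The rRNA-depleted comparison was run under 16 alternatives. The number of members past the limma threshold was 4 or 5 under the 10 that kept all replicates and ranged from 1 to 5 under the 6 that left out a replicate. At an adjusted p under 0.01 it was 2. Over all genes the count was 2242 at 0.01 and 1663 to 5185 with a replicate left out, the lowest without knockout-labelled library 3, where that arm has 1 sample. The number of members in the authors' deposited table was 0 when the log2 fold change also had to reach 1 in size (4 without that). Signs changed for values that had not passed: TYK2 was -0.21 with median ratio scaling, -0.066 with quantile normalization and -0.14 with voom, IRF1 was -0.24, -0.27 and -0.23 under the same settings and -0.080 with the GC trend removed, and IRF9 was -0.078 with voom. PTPN11, which had passed, was -0.12 with the GC trend removed. The causes were not tested. The labels link same-numbered libraries of the genotypes by number only. Correlations of their deviations were 0.02, -0.02 and 0.01, but at this depth counting error could hide a further link. With the 6 libraries as separate samples, 5 members and 6037 genes passed with the replicate number as a block, and 5 and 6880 without. The ratio of IRF7 to IRF3 in the knockout label over the wild type was 2.75 without knockout-labelled library 1 and 3.24 without library 2. Depth limits IRF9 most, with at most 7 reads in a library.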
